A study of Homo sapiens with 10 samples.

Results

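The mitotic G2/M genes are the genes that a dividing cell transcribes late in its cycle, and 58 of them were taken from a fixed list of gene names out of the 31014 genes with intervals in the data. They were chosen by function, though with earlier results of these data known. They cover 11 roles that run from the cyclins and CDK1 through the mitotic kinases, the spindle checkpoint and the kinesins to cytokinesis. Transcription in 22RV1 cells, an established human prostate carcinoma line and thus a single genetic background, was measured by SLAM-seq in 5 groups of 2 libraries each. The groups were untreated control cells and cells kept for 4 h with 20 μM SRPIN340 (an inhibitor of the splicing factor kinase SRPK1), 50 μM Endovion (also called SCO-101), THZ531 (an inhibitor of the transcriptional kinases CDK12 and CDK13, at 100 nM in the study's methods and 150 nM in the description of the series) or THZ531 together with Endovion. All cells, the controls included, received the uridine analogue 4sU for the last 10 min, and chemical conversion then made the labelled positions read as C in place of T. No source used here says whether the 2 libraries of a group came from separate cultures, so the p-values measure the spread between these libraries, which may be technical.

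Most genes of this programme are silenced in G1 by the DREAM complex and switched on in G2 by the MuvB core with B-MYB (the product of MYBL2) and FOXM1, which act on a short promoter element called CHR. CCAAT boxes bound by the trimeric factor NF-Y lie beside the CHR in many of these promoters. The products condense chromosomes, build the spindle, hold the checkpoint and divide the cell, and the proteins and many of the mRNAs are removed when mitosis ends. In bulk RNA, fewer cells in G2 and M and less RNA per cell cannot be told apart.

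The promoters and 3′ ends of the genes whose values are described below were read first. RefSeq promoters (GRCh38.p14, 250 bases before to 50 after the start) were found for 50 members, with 61 promoters in all. There was no entry for BIRC5, TTK, TPX2, FOXM1, BUB3, AURKA, CDCA2 and UBE2C. The letters CCAAT, searched on both strands, stood in 48 of the 61 promoters (78.7%), against 34.6% of 35116 promoters of all genes. The letters TTTGAA or TTCGAA, which are the core of the CHR and were also searched on both strands, stood in 41 of them (67.2%), against 16.4% of all, and both kinds stood together in 59.0%, against 6.38%. The median position of the match was -54 for CCAAT and -18 for the CHR letters, counted from the start site. A match of so few letters is a description and not a shown binding site. The windows below are those of PRC1 and CCNB1, whose nascent RNA moved most steadily in opposite directions, and of KIF18B and PLK1, a motor gene that rose and a kinase gene that did not pass the test, each in the direction of transcription with the matched letters in capitals. The PRC1 windows lie at chr15:90994571-90994600 and chr15:90994538-90994567 on the minus strand, that of CCNB1 at chr5:69167083-69167112 on the plus strand, that of KIF18B at chr17:44947754-44947783 on the minus strand and that of PLK1 at chr16:23678848-23678877 on the plus strand.
PRC1 CCAAT: cgggacgcgacgCCAATcgcgacgaggctt
PRC1 CHR letters: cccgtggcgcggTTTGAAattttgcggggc
CCNB1 CCAAT: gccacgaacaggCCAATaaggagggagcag
KIF18B CHR letters: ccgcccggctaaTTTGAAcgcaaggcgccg
PLK1 CHR letters: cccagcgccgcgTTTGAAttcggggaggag
Both kinds of letters were found in the promoters of PRC1, KIF18B and PLK1. The CCNB1 promoter held CCAAT but no match to the CHR letters. Those letters stood in the promoter of CDCA3, which also fell, so neither kind was confined to genes of 1 direction.

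Reads in these libraries come from 3′ ends, and 49 of 56 members (87.5%) had a polyadenylation signal, AATAAA or ATTAAA, within the last 60 bases of their main interval, against 78.5% of 12617 genes with at least 200 reads. The 3 ends on which results turn are shown with the signal in capitals. They are the far end of CKAP2 (chr13:52476597-52476626, plus strand), an earlier end inside the same gene (chr13:52465812-52465841, plus strand) and the end of PRC1 (chr15:90966053-90966082, minus strand), all in hg38.
CKAP2 far end: cattttgaAATAAAatttaagctttgatac
CKAP2 earlier end: caaaagggATTAAAttcgctttttaaatgt
PRC1 end: ttcttaaaAATAAAttaaaatctgtatact
In both CKAP2 ends the signal lay 18 bases before the end of the interval, and in PRC1 it lay 31 bases before it.

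The libraries held 19315358 to 30047630 reads on genes, of which 5.04% to 5.70% carried a T>C conversion, and the members took 0.477% to 0.596% of the reads. Of defining markers, FOXA1 had 2007 to 4563 reads per library, HOXB13 871 to 3102 and KLK3, the gene of prostate-specific antigen, 49 to 227, while COL3A1, DCN, PTPRC and PECAM1 had at most 13 and COL1A2, CD3E and VWF none. COL1A1 had 40 to 83 reads per library. Reads with a conversion are called nascent RNA, all reads total RNA, and the percentage of a gene's reads with a conversion its labelled share. Levels are given as CPM, read counts scaled to the size of the library with TMM factors, and a gene was called at an adjusted p under 0.05 by the quasi-likelihood test of edgeR with Benjamini-Hochberg adjustment over all genes tested. KIFC1 had 0 reads, SPC25 had 1 read and KIF20B was too low in nascent RNA, so 55 members were tested in nascent RNA and labelled share and 56 in total RNA.

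In nascent RNA few members moved, and they did not move one way. PRC1, which crosslinks antiparallel microtubules of the central spindle, rose in all 4 treated groups, and CCNB1, which encodes cyclin B1, the partner of CDK1 at mitotic entry, fell in all 4. With SRPIN340, PRC1 alone rose and CCNB1 alone fell, beside 0.845% of all genes tested called higher and 0.191% called lower. With Endovion, 4 members rose and 1 fell, beside 2.04% and 0.623% of all genes. With THZ531, 2 rose and 4 fell, beside 3.86% and 3.6%, and with both compounds 5 rose and 3 fell, beside 4.62% and 3.51%. The shares of the 55 members called were thus near or above the background in each comparison, and the 4 comparisons share their 2 control libraries. The median log2 difference of the members was -0.04 with SRPIN340, 0.17 with Endovion, -0.06 with THZ531 and 0.12 with both, against -0.01, -0.01, -0.02 and -0.01 over all genes tested.

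**Figure D1:**
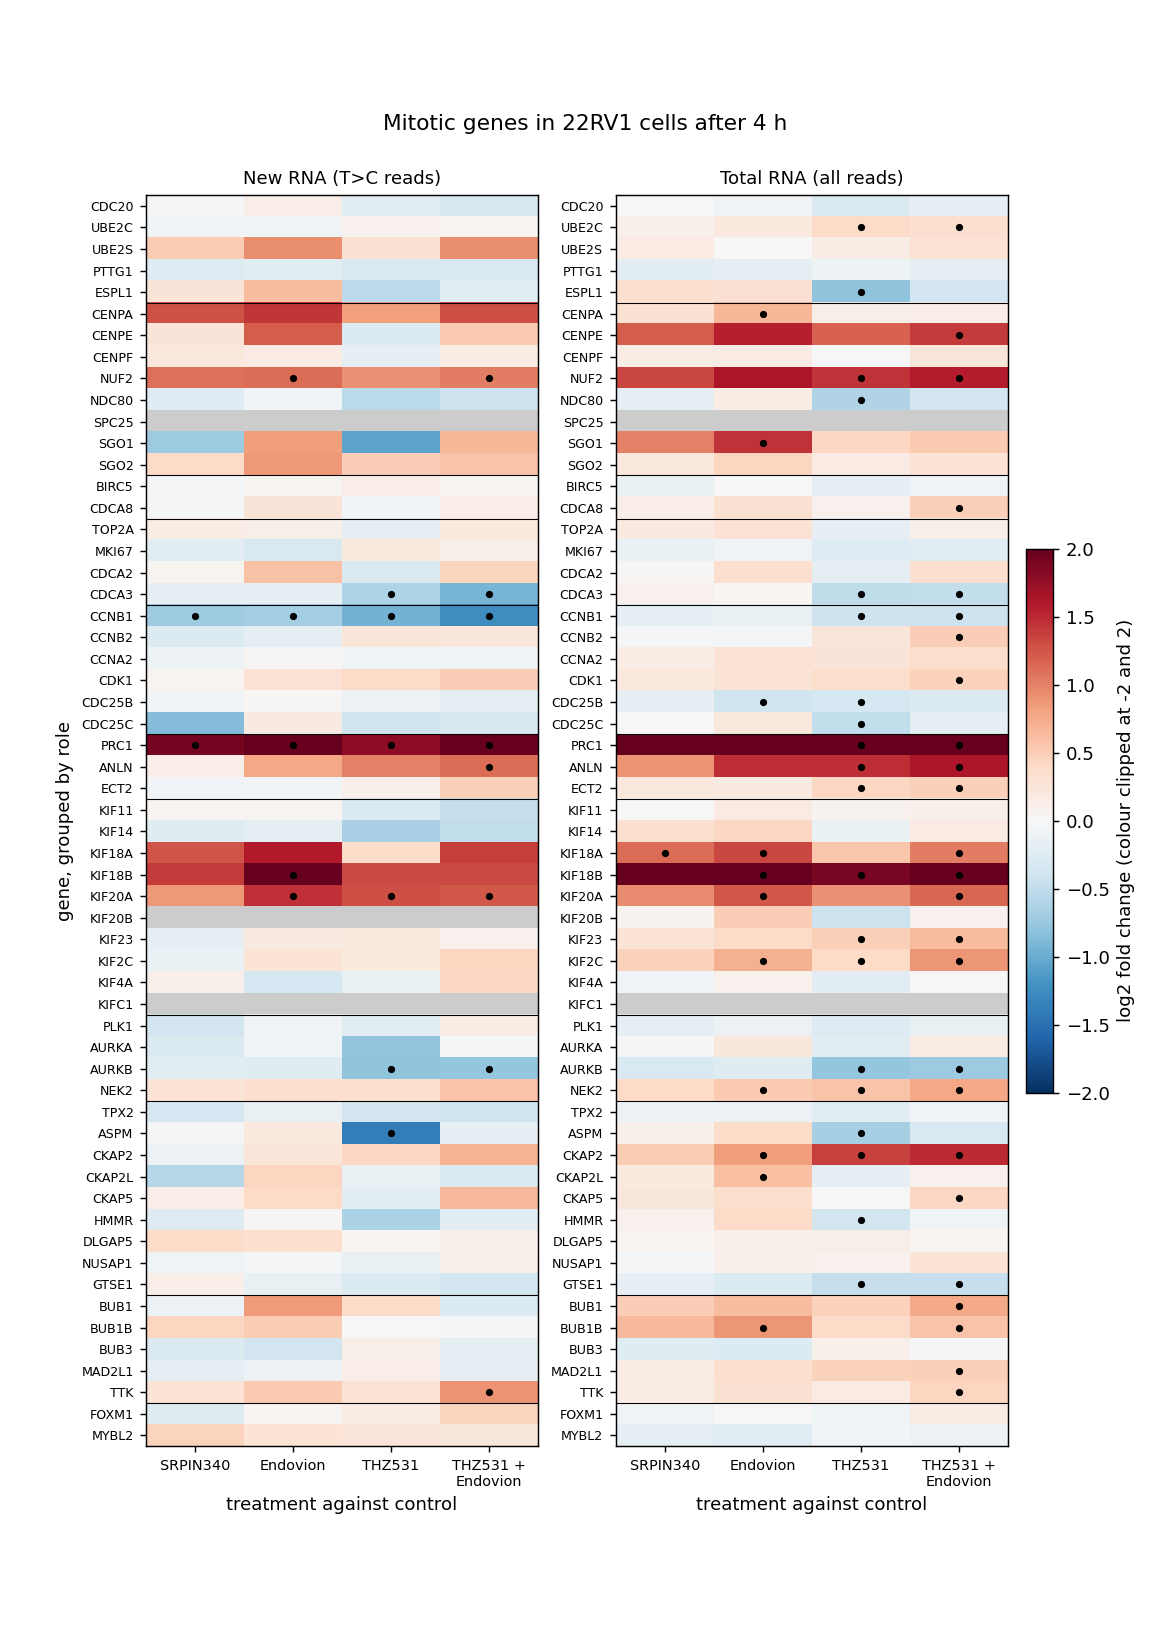
Log2 difference from control, shown as colour clipped at -2.0 and 2.0, of the 58 members by role (rows) for the 4 treatments (columns) in nascent RNA, called new RNA in the panel, and total RNA. Dots mark an adjusted p under 0.05 and grey rows were not tested, and PRC1 is above control and CCNB1 below it in every column.

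PRC1 had nascent levels of 25.1 and 14.4 CPM in the control libraries, 56.1 and 95.8 with SRPIN340, 89.0 and 96.2 with Endovion, 54.7 and 86.4 with THZ531, and 101 and 81.6 with both. All 8 treated libraries were above both control libraries. The group means were 19.8 ± 7.54 (SD, n = 2) in control and 92.6 ± 5.09 with Endovion. By edgeR the log2 difference was 1.92 with SRPIN340 (SE 0.32, adjusted p 0.000246), 2.20 with Endovion (SE 0.33), 1.79 with THZ531 (SE 0.33, adjusted p 0.000165) and 2.18 with both (SE 0.33), which are 3.78-, 4.59-, 3.45- and 4.53-fold. The calls with Endovion, THZ531 and both remained when any 1 of the 10 libraries was left out. The call with SRPIN340 was lost without control replicate 2 (log2 difference 1.60, adjusted p 0.0549) and without SRPIN340 replicate 2 (1.48, adjusted p 0.0705).

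The rise of PRC1 was measured on its 3′ end interval and not on its earlier exons. The interval at the end, chr15:90966038-90967130 in hg38, held 765 and 144 reads in the control libraries and 1785 to 4375 in the treated ones, and the controls themselves were at 27.3 and 6.06 CPM there. The other reads of this gene lie on 12 intervals over its earlier exons, which the authors' annotation lists under a readthrough gene that shares these exons on the same strand, and they were therefore tested as a feature of their own. Those upstream exons were at 264 and 313 CPM in control, 253 and 254 with SRPIN340, 253 and 242 with Endovion, 295 and 275 with THZ531, and 292 and 240 with both. They lay below both controls with SRPIN340 and Endovion and overlapped control with THZ531 and with both. The end took 9.35% and 1.9% of the reads of both parts in the controls and 20.9% to 38.4% in the treated libraries, with no overlap. In total RNA the upstream exons differed from control by -0.19, -0.22, -0.02 and -0.12 on the log2 scale with SRPIN340, Endovion, THZ531 and both, none past the threshold by edgeR. In nascent RNA they differed by -0.29, -0.40, -0.30 and -0.58, of which only the last passed it (adjusted p 0.0226). Many of these T>C reads held no counted conversion. The upstream interval with the most T>C reads had 2363 of them with 261 conversions, and the next had 1033 with 245. The median over all genes tested was 1.06 conversions per T>C read, so the nascent values of the upstream exons are uncertain. PRC1-AS1 overlaps the locus on the other strand and the readthrough gene on the same strand, so the gene's level is uncertain, and the interval at the end does not speak for the whole transcript.

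**Figure D2:**
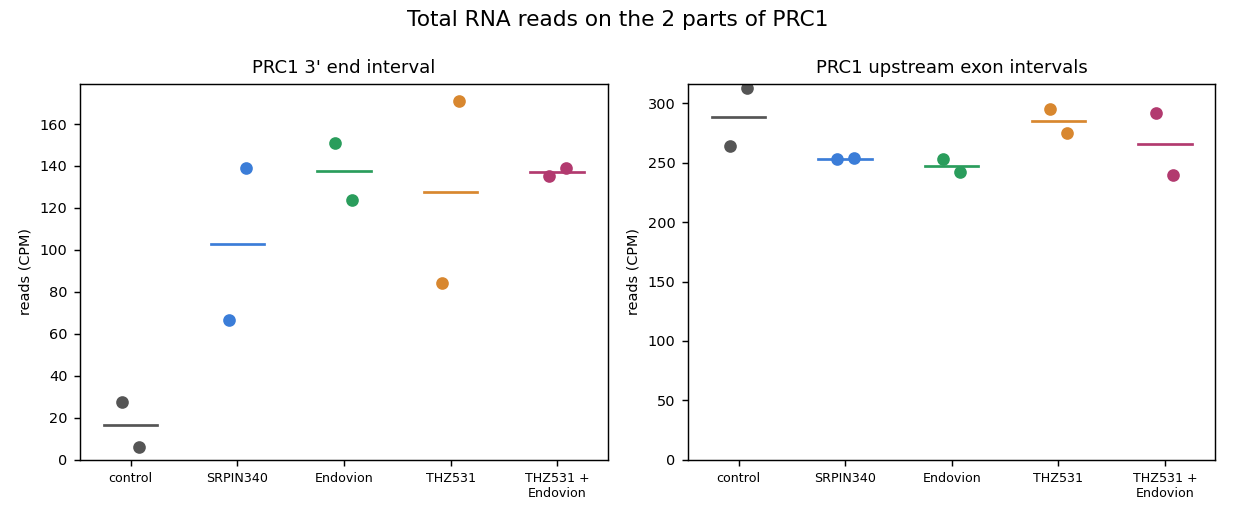
Total RNA reads in CPM (vertical axis from 0) on the 3′ end interval of PRC1 and on its upstream exon intervals, with a point for each of the 2 libraries of a group and a line at their mean. The end goes from 27.3 and 6.06 in control to between 66.8 and 171 in the treated libraries, while the upstream exons lie between 240 and 313 in all.

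Among the cyclins, CDK1 and the CDC25 phosphatases, CCNB1 was the member that moved in nascent RNA. Its nascent level was 271 and 365 CPM in control, 204 and 185 with SRPIN340, 206 and 190 with Endovion, 161 and 169 with THZ531, and 135 and 133 with both. Every treated library was below both controls, and the pair with both compounds was the lowest. The log2 difference by edgeR was -0.71 with SRPIN340 (adjusted p 0.0312), -0.68 with Endovion (adjusted p 0.0237), -0.95 with THZ531 (adjusted p 0.000373) and -1.25 with both compounds (SE 0.19), the last a 2.37-fold fall. Without control replicate 2 the values with SRPIN340 and Endovion were -0.48 and -0.45 and no longer called (adjusted p 0.574 and 0.459), and each also lost its call without either library of its own treated group, whereas those with THZ531 and both stayed called (-0.72 and -1.02). CDK1, the kinase of mitotic entry, had 117 and 91.5 CPM in control and 101 to 168 in the treated libraries, and the groups overlapped with SRPIN340 and Endovion. Its log2 difference reached 0.49 with both compounds (SE 0.23, adjusted p 0.195).

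CCNB1 was also called lower in labelled share with both compounds. Its share was 12.9% and 15.3% in control, 11% and 8.64% with SRPIN340, 9.53% and 8.94% with Endovion, 10.4% and 9.46% with THZ531, and 8.26% and 7.50% with both. All treated libraries were below both controls. The share over all members went from 6.48% and 6.21% in control to between 5.28% and 6.10% in the treated libraries. Over all genes the share was 5.6952% and 5.6337% in control and 5.0445% to 5.6322% in the treated libraries, thus also below both controls. A raw share below both controls in every treated library is therefore by itself not specific to a gene. No member was called in labelled share with SRPIN340, Endovion or THZ531, where 0.181%, 0.442% and 0.342% of all genes were. With both compounds 2 members were called, CCNB1 (log2 difference in the ratio of labelled to unlabelled reads, relative to all genes, -0.80, SE 0.18, adjusted p 0.0157 by edgeR) and MAD2L1, a spindle checkpoint protein (-0.60, SE 0.15, adjusted p 0.0325), beside 1.02% of all genes. MAD2L1 went from 9.74% and 10.3% in control to 6.33% and 6.10%. The shares of CKAP2 (8.63% and 10.6% in control, 4.69% to 6.27% treated) and PRC1 (at least 5.10% in control, 2.66% to 4.65% treated) were also below both controls in all treated libraries, with log2 differences of -0.89 and -1.09 with THZ531, and were called in no comparison with control (lowest adjusted p 0.144 and 0.196). Both calls with THZ531 and Endovion were lost without control replicate 2 (adjusted p 0.234 for CCNB1 and 0.199 for MAD2L1) and without either library of the group given both compounds.

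**Figure D3:**
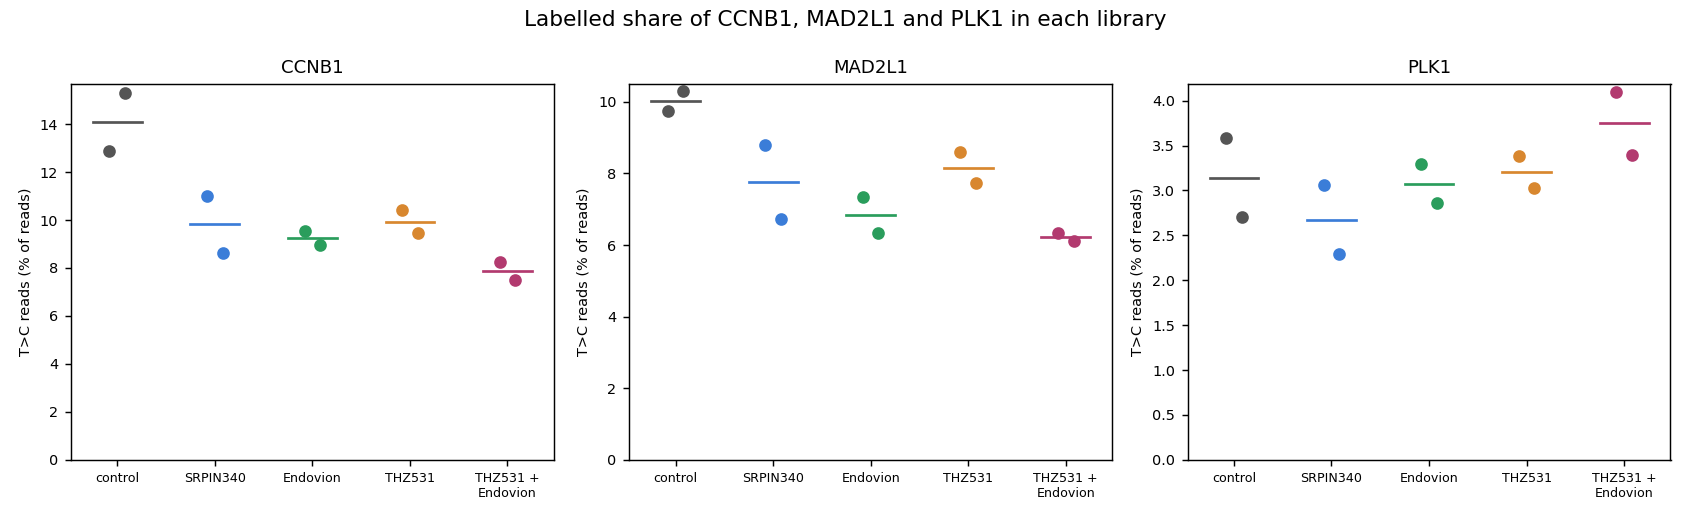
Labelled share in percent of reads (vertical axis from 0) of CCNB1, MAD2L1 and, for comparison, PLK1, with a point for each of the 2 libraries of a group and a line at their mean. CCNB1 goes from 12.9% and 15.3% in control to 8.26% and 7.50% with THZ531 and Endovion, while the groups of PLK1 overlap.

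Of the mitotic kinases, AURKB, the catalytic subunit of the chromosomal passenger complex, fell with THZ531. Its nascent level was 332 and 539 CPM in control, 324 and 416 with SRPIN340, 335 and 399 with Endovion, 276 and 222 with THZ531, and 257 and 252 with both. The control libraries were far apart, and the 4 libraries with THZ531 were below both. By edgeR the log2 difference was -0.80 with THZ531 (SE 0.18, adjusted p 0.00226) and -0.77 with both (SE 0.18, adjusted p 0.00357), and without control replicate 2 it was -0.41 and -0.38 (adjusted p 0.281 and 0.329). The first call was also lost without THZ531 replicate 2 and the second without replicate 1 of the group given both. PLK1, the kinase of mitotic entry and spindle assembly, had 83.0 and 74.6 CPM in control and 54.5 to 94.0 in the treated libraries, and no comparison passed the test. FOXM1 (69.5 and 34.5 CPM in control, 41.3 to 81.3 in the treated libraries) and MYBL2 (47.0 and 59.4 in control, 49.2 to 83.3 treated), which encode the activators of the programme, were called in no comparison with control, and their log2 differences lay between -0.24 and 0.45.

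Kinesins, the motors that move and depolymerise microtubules, held 2 of the members that rose. KIF18B, which shortens astral microtubules, had 15.4 and 8.02 nascent CPM in control, 21.0 and 41.9 with SRPIN340, 59.1 and 44.3 with Endovion, 30.6 and 29.5 with THZ531, and 28.8 and 31.5 with both. KIF20A, a motor of the central spindle, had 25.7 and 19.3 in control, 33.8 and 48.8, 56.8 and 68.3, 44.9 and 67.1, and 56.8 and 51.1 in the same order. For both genes every treated library was above both controls. KIF18B passed the test by edgeR with Endovion (log2 difference 2.11, SE 0.43, adjusted p 0.000981) and was at an adjusted p of 0.0521 with THZ531 and 0.052 with both. KIF20A passed it with Endovion (1.46, adjusted p 0.00745), with THZ531 (1.28, adjusted p 0.0125) and with both (1.25, adjusted p 0.0153). None of these 4 calls was kept without control replicate 2, where the adjusted p was 0.0779 for KIF18B and 0.147, 0.131 and 0.148 for KIF20A, and each was also lost without 1 library of its treated group.

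NUF2, a kinetochore subunit, ANLN, the contractile ring protein anillin, and TTK, the checkpoint kinase MPS1, made up the rest of the members that rose in nascent RNA. NUF2 had 36.0 and 20.9 CPM in control and 43.6 to 70.2 in the treated libraries, with no overlap, and was called with Endovion (1.12, adjusted p 0.0487 by edgeR) and with both (1.03, adjusted p 0.0396). ANLN had 37.3 and 38.5 in control, 29.1 and 53.8 with SRPIN340 and 43.0 to 113 in the other treated libraries, and was called with both compounds (1.11, adjusted p 0.0283). TTK had 60.5 and 40.9 in control and 85.6 and 104 with both, where it was called (0.89, adjusted p 0.0473). Each of these calls sat near the threshold and was lost when any of several single libraries was left out, control replicate 2 among them (adjusted p 0.459 and 0.347 for NUF2, 0.122 for ANLN and 0.344 for TTK).

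Alongside CCNB1 and AURKB, CDCA3, a mitotic entry factor, and ASPM, a spindle pole protein, fell with THZ531. CDCA3 had 295 and 348 nascent CPM in control, 211 and 207 with THZ531 and 174 and 164 with both, while the libraries with SRPIN340 or Endovion alone lay between 246 and 331. By edgeR the log2 difference was -0.62 with THZ531 (adjusted p 0.0193, and 0.185 without control replicate 2, the call being lost also without either THZ531 library) and -0.93 with both (adjusted p 0.000258, called in every leave-one-out fit). A T>C read of this gene held 0.284 counted conversions on average, against a median of 1.06 over all genes tested, and when conversions were counted in place of T>C reads the difference with THZ531 was 0.04. One interval of CDCA3 held 3146 T>C reads with 707 conversions, and the other 190 with 240. By edgeR the first differed by -0.64 with THZ531 and -0.95 with both (adjusted p 0.0159 and 0.000226). The second, with far fewer reads, differed by -0.24 and -0.59 and was not called (adjusted p 0.866 and 0.61). ASPM had 32.8 and 25.7 CPM in control, 10.4 and 12.2 with THZ531, and 28.8 and 23.6 with both. Its difference with THZ531 was -1.38 (SE 0.46, adjusted p 0.048), a call lost whichever of the 10 libraries was left out (adjusted p 0.0774 without control replicate 2). TOP2A, the topoisomerase that untangles sister chromatids, had 180 CPM in both control libraries and 147 to 238 in the treated ones, with no call.

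**Figure D4:**
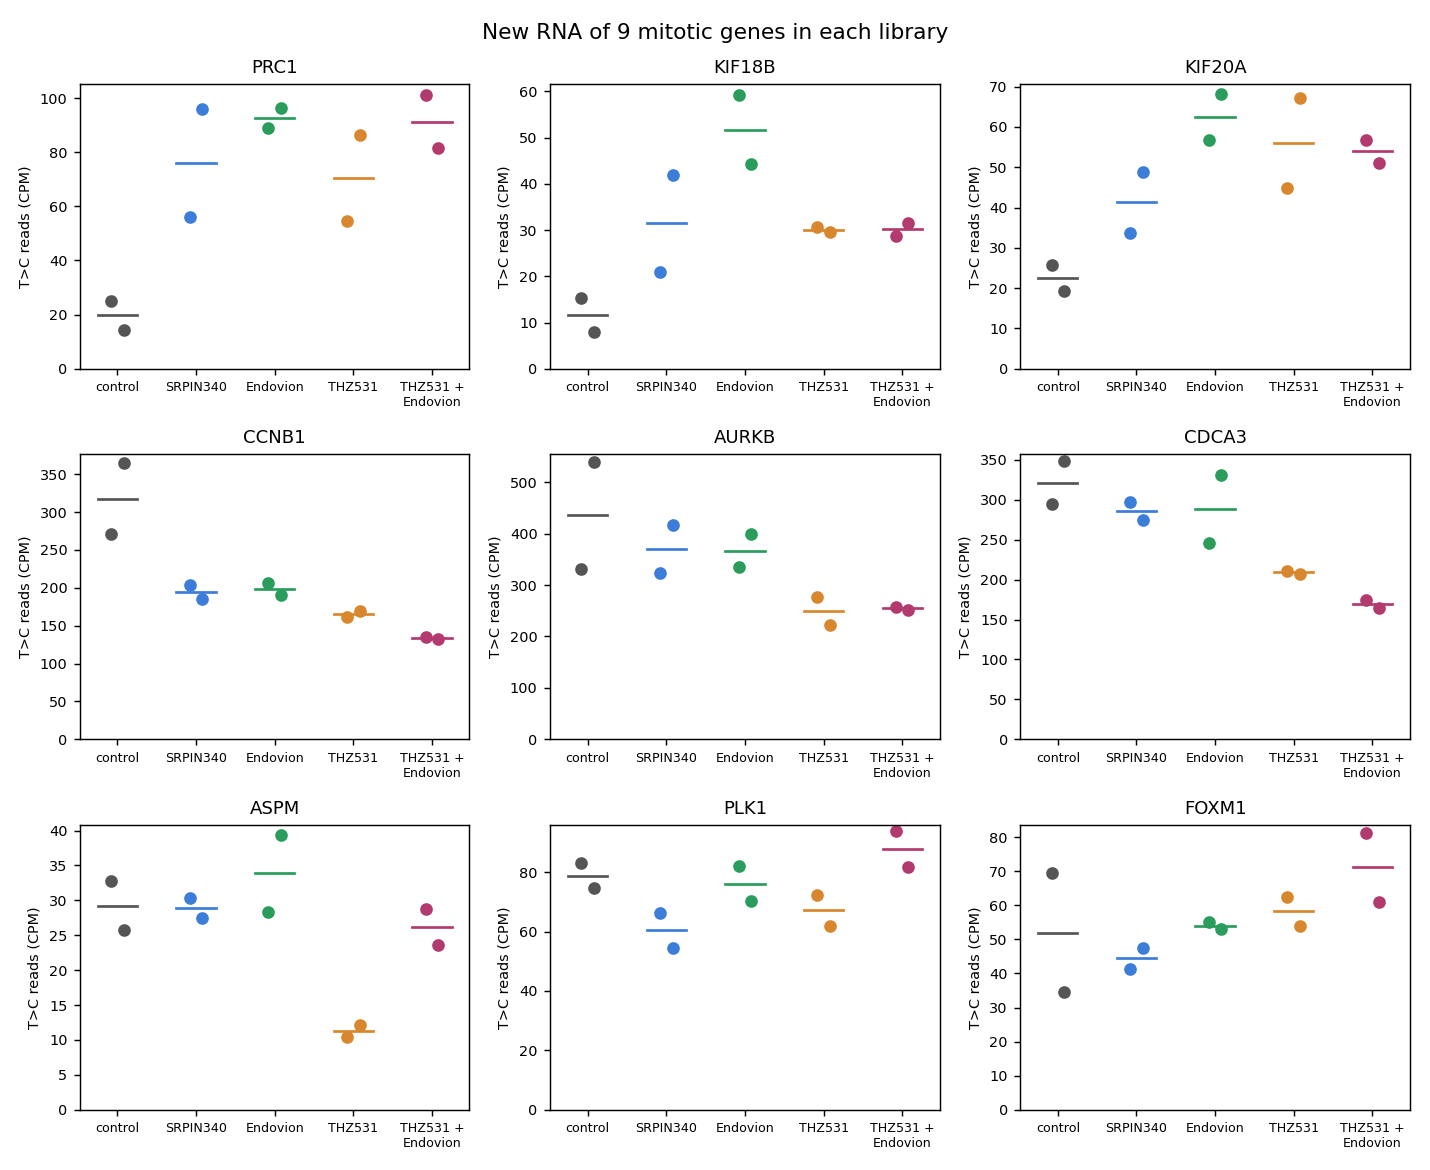
Nascent RNA in CPM of T>C reads (vertical axes from 0) of 9 of the members, with a point for each of the 2 libraries of a group and a line at their mean. PRC1, KIF18B and KIF20A lie above both controls in all treated libraries, CCNB1 lies below both, and ASPM is low in the libraries with THZ531 alone.

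In total RNA more members passed the test, and with Endovion nearly all of these were higher. With SRPIN340 only KIF18A rose and no member fell, beside 1.82% of all 14688 genes tested called higher and 0.143% lower. At an unadjusted p under 0.05 by edgeR there were 15 members, a count given with no share of all genes to judge it by. With Endovion 10 members rose and 1 fell, beside 8.91% and 2.54%. With THZ531 10 rose and 10 fell, beside 16.6% and 14.1%, so the share of members called was near the background in both directions. With both compounds 21 rose and 4 fell, beside 16.6% and 12.4%. The median log2 difference of the members was 0.14, 0.29, 0.08 and 0.20 in that order, against 0.03, 0.02, -0.01 and 0.00 over all genes. Of 57 calls in these 4 comparisons, 10 were kept in each of the 10 leave-one-out fits and 17 without control replicate 2, which had the lowest total level of all libraries in 20 of the 56 members.

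With Endovion 4 of 9 kinesins were called higher and none lower, and with both compounds 5 of 9 were called higher. In these comparisons 8.91% and 16.6% of all genes tested were called higher. Several of the kinesin differences shrank without control replicate 2. KIF20A went from 1.236 to 0.815 on the log2 scale with Endovion and from 1.149 to 0.73 with both, and KIF23 from 0.628 to 0.453 with both. KIF18A, which dampens chromosome movement at the metaphase plate, went from 4.85 and 4.04 CPM in control to 9.24 and 10.1 with SRPIN340, 11.6 and 10.9 with Endovion, 7.04 and 6.06 with THZ531, and 8.73 and 9.31 with both. All treated libraries were above both controls, and by edgeR the log2 difference was 1.12 with SRPIN340 (adjusted p 0.0229, and 0.261 without control replicate 2, the call being lost also without SRPIN340 replicate 2), 1.34 with Endovion (adjusted p 0.00247) and 1.02 with both (adjusted p 0.00251), the latter pair called in every leave-one-out fit. KIF2C, a microtubule depolymerase of the centromere, went from 61.4 and 47.9 CPM to 90.6 and 88.5 with Endovion, 71.0 and 73.8 with THZ531, and 96.3 and 104 with both. Its difference was 0.71 with Endovion (adjusted p 0.00605), 0.41 with THZ531 (adjusted p 0.0372) and 0.87 with both (adjusted p 0.000389), and without control replicate 2 only the last stayed called (adjusted p 0.00813). KIF18B went from 8.84 and 4.80 CPM to 61.1 and 45.1 with Endovion, a 7.75-fold difference called at an adjusted p of 0.0278 and lost without control replicate 2 (adjusted p 0.215).

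The cytokinesis genes ANLN and ECT2, an activator of the small GTPase RhoA, rose in total RNA with THZ531 and with both compounds. PRC1 rose there on its 3′ end interval and not on its upstream exons, which differed by -0.02 and -0.12. In each of these comparisons 16.6% of all genes tested were called higher. The differences for PRC1 were 2.92 and 3.03 on the log2 scale (adjusted p 0.0463 and 0.0439 by edgeR), and it was the member with the widest range of total levels, from 6.06 CPM in control replicate 2 to 171 in THZ531 replicate 2. Both PRC1 calls were lost without control replicate 2 (adjusted p 0.118 each), which held the low value, and were kept in only 1 of the 10 leave-one-out fits. ANLN went from 27.5 and 18.1 CPM to 39.4 and 87.8 with THZ531 and 63.2 and 76.5 with both, and ECT2 was 0.42 and 0.48 higher on the log2 scale. Neither gene kept its calls without control replicate 2 (adjusted p 0.248 and 0.218 for ANLN, 0.103 and 0.0639 for ECT2).

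Of the 5 spindle checkpoint genes, 4 were called higher with both compounds, beside 16.6% of all genes tested. They were BUB1, BUB1B, MAD2L1 and TTK, with log2 differences of 0.43 to 0.75, and all 4 calls depended on control replicate 2. BUB1B, the checkpoint protein BUBR1, had 54.6 and 36.4 CPM in control, 62.0 and 81.5 with SRPIN340, 81.2 and 86.3 with Endovion, 59.0 and 60.2 with THZ531, and 68.6 and 66.8 with both. Every treated library was above both controls, though by little with THZ531. By edgeR it was called with Endovion (0.88, adjusted p 0.00646) and with both (0.57, adjusted p 0.0214), and without control replicate 2 the adjusted p was 0.0884 and 0.28. The other 3 calls with both compounds were also lost without that library (adjusted p 0.169 for BUB1, 0.366 for MAD2L1 and 0.38 for TTK).

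Among the kinases and the anaphase genes the directions were mixed. NEK2, a centrosomal kinase, rose with Endovion, THZ531 and both (0.53, 0.56 and 0.77 on the log2 scale), and the last call was kept in every leave-one-out fit, while the others were lost without control replicate 2 (adjusted p 0.291 and 0.104). AURKB fell from 422 and 591 CPM to 321 and 268 with THZ531 and 288 and 327 with both (-0.78 and -0.72, adjusted p 0.00142 and 0.00256 by edgeR), and in total RNA both calls were kept in every leave-one-out fit. ESPL1, the separase that cuts cohesin at anaphase, had 26.6 and 22.6 CPM in control, 30.7 and 30.4 with SRPIN340, 29.4 and 31.4 with Endovion, 14.3 and 13.7 with THZ531, and 17.7 and 20.1 with both. It thus lay above control with SRPIN340 or Endovion alone and below it with THZ531, and only the fall with THZ531 was called (-0.81, adjusted p 0.00112, kept in every leave-one-out fit). CCNB1 fell by less in total than in nascent RNA, by 0.41 with THZ531 and 0.43 with both on the log2 scale (adjusted p 0.0113 and 0.00909), and the second call was lost without replicate 1 of that group. CDCA3 and GTSE1, a G2 phase microtubule protein, were also lower with THZ531 (-0.51 and -0.47) and with both (-0.50 and -0.46). On its less covered interval alone CDCA3 was -0.35 with THZ531 and -0.34 with both, neither called (adjusted p 0.286 and 0.303 by edgeR). The CDCA3 calls needed THZ531 replicate 2 and, with both compounds, replicate 1 of that group, and the GTSE1 calls were lost without control replicate 2 (adjusted p 0.132 and 0.145).

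CKAP2, a spindle protein that stabilises microtubules, had the clearest rise with THZ531, and most of it came from an end inside the gene. Its total level over both ends went from 38.8 and 32.7 CPM in control to 45.5 and 56.7 with SRPIN340, 63.9 in both libraries with Endovion, 77.9 and 106 with THZ531, and 97.6 and 103 with both. By edgeR the difference was 0.84 with Endovion (adjusted p 0.00524, and 0.0804 without control replicate 2), 1.36 with THZ531 and 1.49 with both, the latter pair kept in every leave-one-out fit. The far end, chr13:52475142-52476628 in hg38, is the last exon of the longer transcript with 9 exons. The earlier end, chr13:52465475-52465843, is the final part of exon 6 of a shorter transcript, CKAP2-202, which runs on past the splice site that the longer one uses.

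The earlier end of CKAP2 held 94 and 46 reads in the control libraries, 153 and 205 with SRPIN340, 207 and 125 with Endovion, 1197 and 1162 with THZ531, and 1216 and 975 with both. Its share of the reads of both ends was 8.63% and 5.93% in control, 9.67% to 12.6% with SRPIN340 or Endovion, and 49.3% to 58.6% in the 4 libraries with THZ531, so these 4 stood apart from the other 6. The far end was at 35.5 and 30.7 CPM in control, 39.8 and 50.2 with SRPIN340, 56.0 and 57.8 with Endovion, and 44.3 and 52.5 with both. With THZ531, replicate 1 lay between the controls at 33.8 CPM and replicate 2 above them, so that group overlapped control. The far end lay above both controls in the other 3 groups. In total RNA the earlier end was 4.31 higher with THZ531 on the log2 scale (SE 0.25, adjusted p 4.2e-07 by edgeR) and 4.29 higher with both (SE 0.25, adjusted p 2.28e-07), or 19.9- and 19.5-fold, while the far end differed by 0.23 (adjusted p 0.305) and 0.55 (adjusted p 0.0182). With SRPIN340 and Endovion alone the earlier end was 1.20 and 1.41 higher (adjusted p 0.0313 and 0.00443), and the far end 0.44 and 0.78 higher (adjusted p 0.147 and 0.00746). Reads with a conversion on the earlier end numbered 8 and 0 in control, 6 to 9 with SRPIN340 or Endovion and 53 to 65 with THZ531. In nascent RNA the earlier end was 4.02 higher with THZ531 (adjusted p 5.42e-06) and 4.23 higher with both (adjusted p 1.07e-06), and the far end differed by -0.67 and -0.33, neither called. The difference between both compounds and Endovion alone on the earlier end was 2.88 in nascent RNA (adjusted p 0.00111), and that between both compounds and THZ531 alone was 0.21 (adjusted p 0.97). The split by ends was added after the values had been seen.

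**Figure D5:**
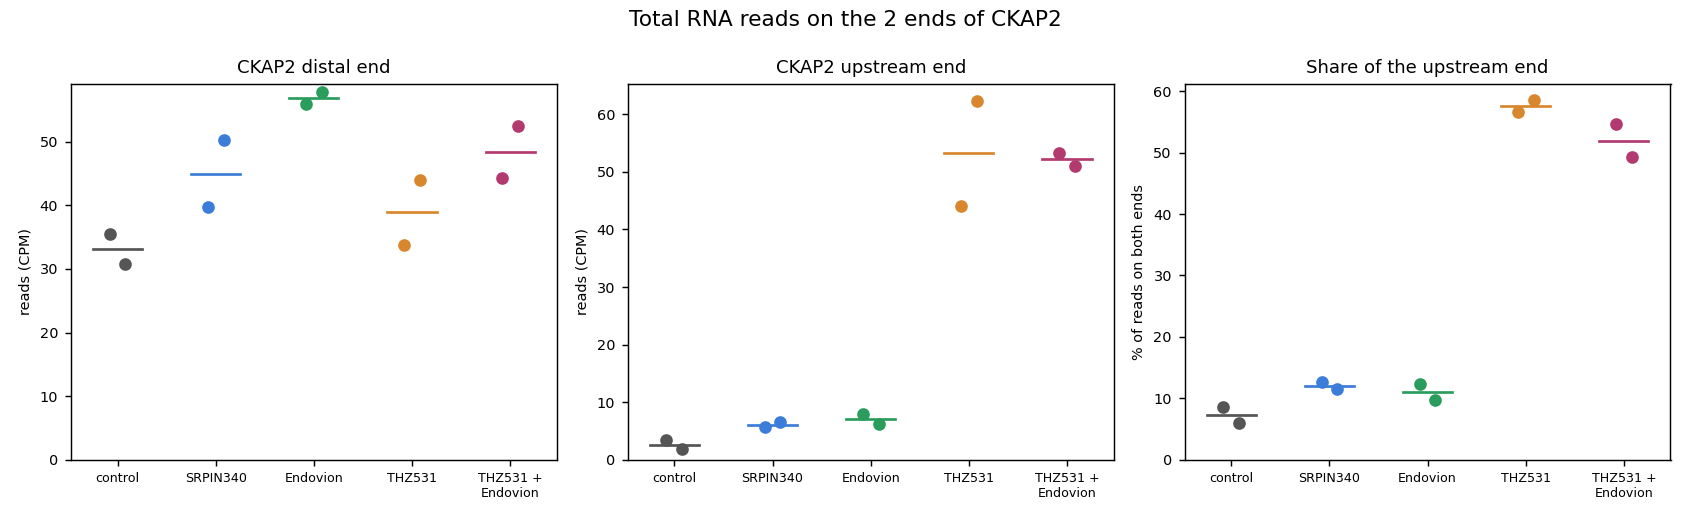
Total RNA reads in CPM on the far (distal) and the earlier (upstream) end of CKAP2, and the percentage of both that the earlier end took, with a point for each of the 2 libraries of a group and a line at their mean. The earlier end takes 49.3% to 58.6% in the libraries with THZ531 and 5.93% to 12.6% in all others.

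The direct comparisons between treated groups called few members. Between both compounds and THZ531 alone no member was called in nascent RNA (0.322% of all genes by edgeR, and 5 members at an unadjusted p under 0.05) or in total RNA (0.511% of all genes, and 10 members). Between SRPIN340 and Endovion none was called in nascent RNA either (0.0603% of all genes, with 1 member, CDCA2, at an unadjusted p under 0.05), and doses of different compounds are not matched. The counts at an unadjusted p are given with no share of all genes to judge them by. Between both compounds and Endovion alone, CDCA3 was lower in nascent RNA (-0.77, adjusted p 0.016), beside 1.21% of all genes, a call lost without Endovion replicate 2 (-0.54, adjusted p 0.388) and without either library given both compounds, and 6 members were called in total RNA, beside 8.22%. Of those 6, CCNB2 (0.52) and CKAP2 (0.65) were higher, and ESPL1 (-0.68), ASPM (-0.67), CDCA3 (-0.53) and the spindle protein HMMR (-0.45) were lower with both compounds. On the far end alone CKAP2 was not higher (-0.23, adjusted p 0.441), so its call rests on the earlier end.

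Between THZ531 and Endovion more members were called in total RNA, and more of all genes tested were called as well. In nascent RNA ASPM was lower with THZ531 (-1.58, adjusted p 0.0302 by edgeR), beside 4.39% of all genes, and the call was lost without any 1 of the 4 libraries compared (adjusted p 0.227 without THZ531 replicate 1 and 0.267 without Endovion replicate 2). In total RNA 16 members were called, beside 18.6% of all genes in either direction, 14 of these members lower with THZ531 and 2 higher. ESPL1 (-1.12), ASPM (-1.03) and SGO1, the shugoshin that guards centromeric cohesin (-1.03), were the lowest of these, and BUB3, a checkpoint protein (0.39), and CKAP2 (0.53, but -0.55 on the far end alone) were higher. The interaction term, which asks whether the effect of both compounds differs from the sum of the single ones on the log2 scale, called PRC1 in nascent RNA (-1.80, SE 0.44, adjusted p 0.0439), beside 0.302% of all genes, and this call was lost without control replicate 2 (-1.48, adjusted p 0.335), without THZ531 replicate 2 (-1.46, adjusted p 0.452) and without any library given Endovion. Both compounds together thus gave PRC1 about the level that either gave alone, and on the upstream exons the interaction was 0.12 (adjusted p 0.951).

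Other genes of the same programme, a list of 86 with no member among them, were tested in the same way. In nascent RNA 2 rose and 0 fell with SRPIN340, 3 and 0 with Endovion, 4 and 6 with THZ531 and 5 and 1 with both, out of 81 tested. Of all genes tested in nascent RNA, 0.845%, 2.04%, 3.86% and 4.62% were called higher in that order. The shares called lower there were 0.191%, 0.623%, 3.6% and 3.51%. In total RNA the counts higher and lower were 4 and 0, 21 and 0, 28 and 12, and 32 and 7 of 85, with median log2 differences of 0.18, 0.31, 0.16 and 0.29. With THZ531 more of this list rose than fell in total RNA, whereas the calls of the members were evenly split. A list of 52 DNA replication and G1/S genes had median total differences of -0.06, 0.00, 0.00 and 0.08, with 0, 6, 10 and 10 of its genes higher and 0, 2, 8 and 4 lower. In total RNA 1.82%, 8.91%, 16.6% and 16.6% of all genes tested were called higher in that order. The shares called lower were 0.143%, 2.54%, 14.1% and 12.4%. HMGB2, a chromatin protein of the first list, had the largest nascent rise in it, between 5.19 and 5.49 on the log2 scale in the 4 comparisons. Its labelled share was 4.25% and 5.22% in the control libraries and 23.5% to 42.9% in the treated ones, with 4545 and 1302 reads in control and 8674 to 22740 in the treated libraries. NCAPH, a condensin subunit, was 2.29 to 2.54 higher in nascent RNA in the 3 comparisons in which it was called, and PLK4, the kinase of centriole duplication, was 2.75 higher with SRPIN340 and 3.11 higher with Endovion. These differences rest on few T>C reads, 10 and 2 in control for NCAPH and 9 and 1 for PLK4. In control replicate 2 the counts were thus near 0. With Endovion NCAPH had 30 and 28 T>C reads and PLK4 39 and 33.

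The members that were called in no comparison with control in either kind of RNA included genes with narrow ranges. Across the 10 libraries, the highest total level over the lowest was 1.22-fold for BIRC5, the survivin subunit of the chromosomal passenger complex, 1.27-fold for CENPF, a kinetochore protein, 1.28-fold for KIF11, the motor that separates the spindle poles, and 1.33-fold for TPX2, which activates Aurora A. PLK1 spanned 1.34-fold, CDC20, the activator of the anaphase-promoting complex, 1.43-fold, and MKI67, the gene of the proliferation marker Ki-67, 1.55-fold. At the other end, PRC1 spanned 28.3-fold, KIF18B 12.7-fold, NUF2 5.16-fold, ANLN 4.85-fold and CENPE, a kinetochore motor, 4.62-fold, and in each of these 5 the lowest library was control replicate 2. In total RNA both control libraries were lower than every treated library for PRC1, KIF18B, NUF2, ANLN and CENPE. Control replicate 2 was also the highest library for other members, among them CCNB1, AURKB, GTSE1 and PLK1, so it was extreme in both directions.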

How the data were processed

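Poly(A) RNA 3′ ends were sequenced (QuantSeq, single end, with molecular identifiers) in 10 libraries of 22RV1 cells. The authors counted reads and T>C reads per 3′ interval with SLAM-DUNK, and the deposited counts were used as given, without normalization. The submitters' processing notes name Bowtie2 2.3.4.1, SAMtools 1.6, DESeq2 1.38.2 and the build hg38. Whether known variants were masked, how many conversions a T>C read needed and whether identifiers were collapsed is not given in the sources used here. PCR copies and unmasked variants can thus enter the counts. SEs and p-values include the spread between libraries, not only counting error.

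Of 104653 intervals, 92823 matched GENCODE v44, and 3.53% of T>C reads lay on unmatched ones. Within a gene the best-covered of overlapping intervals was kept (57622 in all) and summed to 31014 genes. T>C reads (9945 genes after filterByExpr) and all reads (14688 genes) went into the quasi-likelihood test of edgeR 4.0.16 (R 4.3.3), with TMM scaling, 1 fit for all 10 libraries, Benjamini-Hochberg adjustment and calls at an adjusted p under 0.05. The labelled share was tested as T>C reads against the gene's other reads in each library, in the same package. An SE is the log2 difference over the square root of its F statistic. The code was tested on simulated data. Members, lists and named genes were chosen with earlier results of these data known. The genes given in every library are FOXM1, MYBL2, CCNB1, CDK1, PLK1, PRC1 and TOP2A, then those with the smallest p among called members in nascent RNA, total RNA and labelled share. Genes of other lists are named by smallest p. Alternatives were DESeq2 1.42.0, its size factors, scaling by all reads, no filter, a plain sum of intervals, fewer libraries, a replicate block and the methods' threshold (unadjusted p under 0.05 with a log2 difference of at least 1.0). Counting conversions and splitting genes by interval were added after seeing the data.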

Additional observations from a re-analysis of the deposited data

Results flagged for a closer look

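The nascent level of PRC1 gave a difference between effects that passed its own test. The effect of THZ531 with Endovion was -1.8 on the log2 scale away from the sum of the single effects (edgeR interaction term, adjusted p 0.0439), and all 8 treated libraries were above both controls. The call was lost without control replicate 2, without THZ531 replicate 2, and without either library of the Endovion group or of the group with both compounds. It was also lost with DESeq2, with scaling by all reads, with a plain sum of intervals and with conversions counted in place of T>C reads, and on the upstream exons alone the term was 0.12. Groups of 2 libraries cannot be tested for outlying samples.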

How the results depend on the processing

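When 1 library was left out, counts of members called moved while the single-gene differences kept their direction in all such fits. Members called higher in nascent RNA ranged from 0 to 2 with SRPIN340, 1 to 4 with Endovion, 1 to 4 with THZ531 and 1 to 6 with both, and lower from 0 to 1, 0 to 1, 1 to 3 and 2 to 3. In total RNA higher ranged from 0 to 6, 1 to 13, 1 to 13 and 6 to 18, and lower from 0 to 1, 0 to 3, 6 to 10 and 1 to 6. In labelled share the ranges were 0 to 0, 0 to 1, 0 to 1 and 0 to 3, and in nascent RNA 0 to 1 for both against Endovion, 0 to 4 for THZ531 against Endovion, 0 to 2 for the interaction and 0 to 0 for the other pairs.

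With DESeq2, 7 members were higher in total RNA with SRPIN340, 2 lower in total RNA with Endovion, 2 higher in nascent RNA with both, and 0 for THZ531 against Endovion and the interaction. With conversions in place of T>C reads, nascent calls were 0 higher and 0 lower with SRPIN340, 1 and 0 with Endovion, 1 and 1 with THZ531, 1 and 1 with both and 0 elsewhere. Scaled by all reads, 3 were higher in nascent RNA with both and 0 in the interaction. With no filter, 7 were higher in total RNA with SRPIN340, 2 were called in share with THZ531 and 2 in nascent RNA for THZ531 against Endovion. With only the groups compared, the calls were 0 lower in nascent RNA with SRPIN340 and Endovion, 0 higher in total RNA with SRPIN340, 0 lower with Endovion, 3 higher with THZ531, 3 higher in nascent RNA with both, 1 in share with both and 0 for both or THZ531 against Endovion. With a plain sum of intervals, nascent calls were 0 and 0 with SRPIN340, 1 and 0 with Endovion, 1 and 2 with THZ531, 1 higher with both, and 0 for both against Endovion and the interaction, and there were 0 in total RNA with SRPIN340 and 0 in share with both. At the methods' threshold, nascent calls were 3 and 0 with SRPIN340, 0 lower with Endovion, 4 and 1 with THZ531, 1 lower with both, and 1, 0, 3 and 4 for both against THZ531, both against Endovion, THZ531 against Endovion and the interaction. Total calls were 6 higher with SRPIN340, 0 lower with Endovion, 6 and 0 with THZ531 and 8 and 0 with both, and share calls 1 with THZ531 and 1 with both. The shares of all genes given above belong to the main setting. No such share is given for the other settings or the leave-one-out fits. Their counts thus show only how the calls moved, not whether members were called more often than other genes. The causes were not tested. DESeq2 and scaling by all reads were not run for labelled share.

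The replicate numbers did not pair the libraries, since the correlation of replicate differences between groups was -0.07 to 0.06 in nascent and -0.15 to 0.20 in total RNA. With the replicate block, 0 members were lower in total RNA with Endovion, 6 higher with THZ531 and 3 called in nascent RNA for THZ531 against Endovion.

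Reversed signs came from the added alternatives. On its upstream exons alone PRC1 was -0.29, -0.40, -0.30 and -0.58 in nascent RNA with SRPIN340, Endovion, THZ531 and both, 0.12 in the interaction, and -0.019 and -0.12 in total RNA with THZ531 and both. The nascent values of these exons rest on T>C reads with few counted conversions and are uncertain. CDCA3 was 0.04 in nascent RNA with THZ531 when conversions were counted. On its far end alone CKAP2 was -0.23 for both against Endovion and -0.55 for THZ531 against Endovion. At 2 libraries a group, low members such as KIF18A, SGO1 and ASPM limit the precision.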

Other observations

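The relation of the members' differences to the length of their genes is given as a description across genes, which share libraries and are not independent replicates. Spearman's rho between genomic span and the total difference was 0.277 with SRPIN340, 0.358 with Endovion, 0.09 with THZ531 and 0.198 with both compounds over 56 members, against 0.19, 0.196, 0.113 and 0.184 over 14688 genes. In nascent RNA it was 0.284, 0.275, 0.013 and 0.219 over 55 members, against 0.104, 0.119, 0.053 and 0.117 over 9945 genes.

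The number of counted conversions per T>C read was under 0.7 in 5 of 55 members (9.09%), against 3.72% of all genes tested. These members were CDCA3 (0.284), CDCA8 (0.429), KIF23 (0.443), NUF2 (0.494) and PTTG1 (0.663).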
